A study of Mus musculus with 56 samples.

Results

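The respiratory chain members described here were the protein-coding genes for subunits of complexes I to IV, together with the protein-coding genes of the mitochondrial genome. They were chosen by symbol in the GENCODE M21 annotation (Nduf subunits of the A, B, C, S and V series, Sdha to Sdhd, Uqcr genes, Cox4 to Cox8 genes, and the mt-Nd, mt-Co, mt-Cytb and mt-Atp genes) and found in the deposited tables by gene identifier. The rule gave 79 genes of the 50600 listed. Of these, 66 were nuclear (36 of complex I, 4 of complex II, 8 of complex III and 18 of complex IV) and 13 were mitochondrial (7 of complex I, 1 of complex III, 3 of complex IV and 2 of complex V). No expression value entered the choice.

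The study followed cortical and medullary thymic epithelial cells (cTECs and mTECs) through late gestation and the regrowth of the thymus after birth. B.6SJL-Ptprca Pep3b/BoyJ-CD45.1 (B6.SJL) females were mated with BALB/cJ males, and pups were taken away at birth. EpCAM+CD45- cells were sorted as UEA1- (cTECs) or UEA1+ (mTECs) after enzymatic digestion, each library came from 1 mouse, and 56 stranded poly(A) RNA libraries were sequenced, 28 per cell type. In each cell type there were 3 libraries each from non-pregnant control females (NPC), from 2 days before parturition (D-2), from parturition (D0) and from D3, D6 and D12, and 1 library from each of 6 further days up to D10 (D1, D2, D4, D5, D8 and D10) and of D16, D20, D24 and D28. D0 to D12 was the early regeneration phase (18 libraries per cell type) and D16 to D28 the late phase (4 libraries). The ages of the females are not given in the labels. The population left after a sort on UEA1 is a mixture of epithelial subsets, and in bulk libraries fewer cells of a type and less RNA per cell cannot be told apart.

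Estimated counts per library ranged from 4561208 to 108547384, and the median was higher in cTECs (22823581.5) than in mTECs (15590738). Between the cell types the marker lists differed in the direction of the sort, but both lists were read in both cell types. All 8 cTEC markers tested were lower in mTECs and all 9 mTEC markers were higher. The summed level of the cTEC list was 1530 to 12100 FPKM (fragments scaled to transcript length and to the library's mapped reads) in cTECs and 746 to 4620 in mTECs. The mTEC list summed to 3660 to 8100 FPKM in cTECs and 10400 to 19900 in mTECs. In cTECs it exceeded the cTEC list at D-2 (5780 to 8100 against 1530 to 2610 FPKM) and at D0 (6510 to 7850 against 2740 to 3680). Such sums rest mostly on the most abundant genes of a list. Medians in cTECs ran from 0.17 FPKM for Ivl to 4090 for Ccl21a in the mTEC list, with 5.66 for Aire. They ran from 24.8 for Dll4 to 2480 for Ccl25 in the cTEC list, and from 0.075 for Pdgfra to 241 for Dcn in the fibroblast list. Thymocyte genes summed to 48.0 to 611 FPKM in cTECs and 45.2 to 159 in mTECs.

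Complex I (NADH dehydrogenase) and complex II (succinate dehydrogenase, which is also an enzyme of the citric acid cycle) pass electrons to ubiquinone, complex III passes them on to cytochrome c, and complex IV (cytochrome c oxidase) passes them to oxygen. Complexes I, III and IV pump protons, and ATP synthase, often called complex V, uses the gradient. Complex II is encoded entirely in the nucleus, whereas complexes I, III and IV are assembled from nuclear subunits and from core subunits encoded in mitochondrial DNA, which is transcribed as long polycistronic RNAs.

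For several mitochondrial members, the deposited value was not the level of the transcript. A nuclear stretch of mitochondrial sequence on mouse chromosome 1 (GRCm38, 24611535 to 24616197) is annotated as separate genes that repeat mitochondrial genes almost base for base. The first 30 bases of mt-Co3 (chrM:8607-8636) and of its copy Gm28437 (chr1:24613942-24613971, minus strand), read from the GENCODE transcripts, are shown because a read within them cannot be assigned to either.
mt-Co3: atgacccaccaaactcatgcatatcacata
Gm28437: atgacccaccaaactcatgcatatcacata
Over their common length, 783 of 783 bases were identical for this pair, 681 of 681 for mt-Co2 and Gm28661, 678 of 678 for mt-Atp6 and Gm10925, and 294 of 294 for mt-Nd4l and Gm10222. The copy of mt-Nd3 (chrM:9459-9488 shown) differed at a single base, T3C, with positions counted from 1 at the 5′ end of mt-Nd3 and the base of mt-Nd3 given first. It is in capitals below beside the copy Gm28438 (chr1:24613090-24613119, minus strand).
mt-Nd3: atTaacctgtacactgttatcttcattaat
Gm28438: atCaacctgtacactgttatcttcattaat

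The quantification divided the reads of each pair between the 2 genes, and the division changed from library to library. mt-Co3 (cytochrome c oxidase subunit III) had a median of 0.16 FPKM over 56 libraries (0.02 to 685), whereas Gm28437 had 5270. mt-Co2 was listed at 0 in 18 libraries and reached 2450 FPKM in another, with a median of 312 against 4950 for its copy. mt-Atp6 was listed at 0 in 13 libraries, mt-Nd3 in 8 and mt-Nd4l in 6. The sum of member and copy varied less and never fell below 2650 FPKM for mt-Co2 or 2290 for mt-Atp6. For mt-Co1 the copy Gm29216 covers only part of the gene (486 of 492 aligned bases identical), and mt-Co1 kept a median of 91.31% of the pair. The copy of mt-Nd4, Gm28439, was at 0 in all 56 libraries. Copies took 26.61 to 37.18% of the reads assigned to mitochondrial members and copies together. Because of this, mitochondrial values below are given with the copies added, or are said to be as deposited. The sums include chromosome 2 copies of mt-Co1 and mt-Co2, Gm13340 and Gm13341, with medians of 0.495 and 0.185 FPKM.

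**Figure D1:**
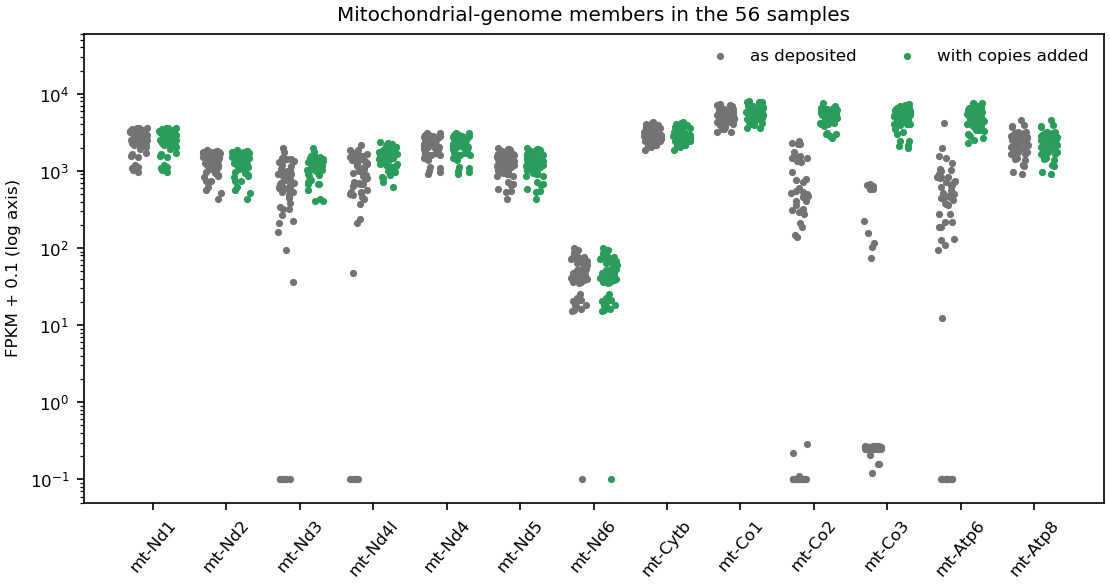
FPKM + 0.1 (log axis) of the 13 mitochondrial members in 56 libraries, as deposited (grey) and with the chromosome 1 copy added (green), 1 point per library. As deposited, mt-Co2, mt-Co3, mt-Atp6, mt-Nd3 and mt-Nd4l scatter over several orders of magnitude down to 0, while the sums lie in narrow bands.

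The mitochondrial members were the most abundant. With copies added, mean FPKM over the 56 libraries was 5710 for mt-Co1 (5210 as deposited), 5230 for mt-Co2 (551 as deposited) and 5050 for mt-Co3 (68.2 as deposited), the catalytic core of complex IV, and 4960 for mt-Atp6 (532 as deposited). It was 1580 for mt-Nd4l (928 as deposited) and 1180 for mt-Nd3 (694 as deposited). Members with no copy counted had means of 3000 FPKM (mt-Cytb, cytochrome b of complex III), 2570 (mt-Nd1), 2400 (mt-Atp8), 1330 (mt-Nd2) and 1290 (mt-Nd5), and mt-Nd4, whose copy was at 0, had 2190. mt-Nd6, the one member on the other strand of the mitochondrial genome, had a mean of 46.7. With copies added, the median over the 13 members was 2400 FPKM. Among nuclear members, the median of the mean levels was 110 FPKM in cTECs and 107 in mTECs. Levels per complex lay close together in both cell types, with a median of 101 FPKM in cTECs and 101 in mTECs for complex I, 99.5 and 85.6 for complex II, 130 and 134 for complex III, and 144 and 134 for complex IV. The most abundant nuclear members were 3 complex IV subunits, Cox5b (393 FPKM), Cox4i1 (351 FPKM) and Cox8a (337 FPKM). Succinate dehydrogenase subunits had means of 99.6 FPKM (Sdha, the flavoprotein), 85.3 (Sdhb, the iron-sulfur subunit), 135 (Sdhc) and 56.8 (Sdhd), the last 2 being the membrane anchors.

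Complex IV has subunits with tissue-restricted isoforms, and the widely expressed isoform was by far the more abundant of each pair in TECs. On the FPKM scale, Cox4i1 had a mean of 351 and Cox4i2 of 1.52. Cox6a1 had 193 and the muscle isoform Cox6a2 0.496. Cox6b1 had 265 and the testis isoform Cox6b2 2.97. Cox7a2 had 134 and the muscle isoform Cox7a1 1.04, Cox7b had 145 and Cox7b2 0.0391, and Cox8a had 337 against 6.03 for Cox8b. Cox8c was listed at 0 in all 56 libraries. These low isoforms account for the 3 nuclear members that were not tested in cTECs and the 2 not tested in mTECs, because their mean was under 0.5 FPKM there. Among nuclear members, Ndufb4 had a median of 26.5 FPKM (0 to 67.7) beside 115 for Ndufb4c, with which it shared 17.16% of 75-base windows, and Cox7c had 96.2 (0 to 305) beside 322 for Gm12338 (9.83% shared). Whether reads were divided between these pairs was not tested, and no copy was added for nuclear members.

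Nuclear members varied little among libraries. Over the 63 tested in both cell types, the median SD of log2(FPKM + 0.5) over 28 libraries was 0.37 in cTECs and 0.39 in mTECs, and within a time point it was 0.31 and 0.37. The SD over all libraries was under 0.5 for 51 of 63 members in each cell type. Averaged over the 63 members, log2(FPKM + 0.5) in cTECs was 6.26 to 6.60 in NPC, 6.04 to 6.42 at D-2, 6.37 to 6.69 at D6, 6.63 to 6.72 at D12 and 6.02 to 6.43 in the late phase. In mTECs it was 6.21 to 6.56 in NPC, 6.09 to 6.29 at D-2, 5.72 to 6.37 at D0, 5.97 to 6.33 at D3, 6.48 to 6.61 at D6, 6.55 to 6.66 at D12 and 6.29 to 6.34 in the late phase. The D12 libraries lay above all D-2 libraries in both cell types. In mTECs 2 of the 3 D3 libraries lay below all D-2 libraries, as did the lowest D0 library. Low isoforms count in this average as much as abundant subunits. In mTEC D3 replicate 1 only the complex IV average (4.866) lay below D-2 (5.628 to 5.99), with complex I at 6.168 (6.127 to 6.32 at D-2). In mTEC D0 replicate 2 complexes IV (4.268), II and III were below, and complex I (6.152) was not. In mTEC D3 replicate 3 complexes I (5.935) and III were below, and complexes II and IV were not.

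The mitochondrial average of the same kind (copies added) was more uneven and had single libraries well below their group. It was lowest in cTEC D28 (9.71), cTEC NPC replicate 3 (9.82), cTEC D6 replicate 3 (9.88), mTEC D3 replicate 3 (9.95) and cTEC D16 (9.98), whereas the median was 10.88 in cTECs. In cTEC D6 replicate 3, mt-Nd2 was 618 FPKM, against 1739 and 1746 in replicates 1 and 2. In cTEC NPC replicate 3 it was 522 FPKM, against 1560 and 1739. For several contrasts, medians are given below also without single libraries.

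**Figure D2:**
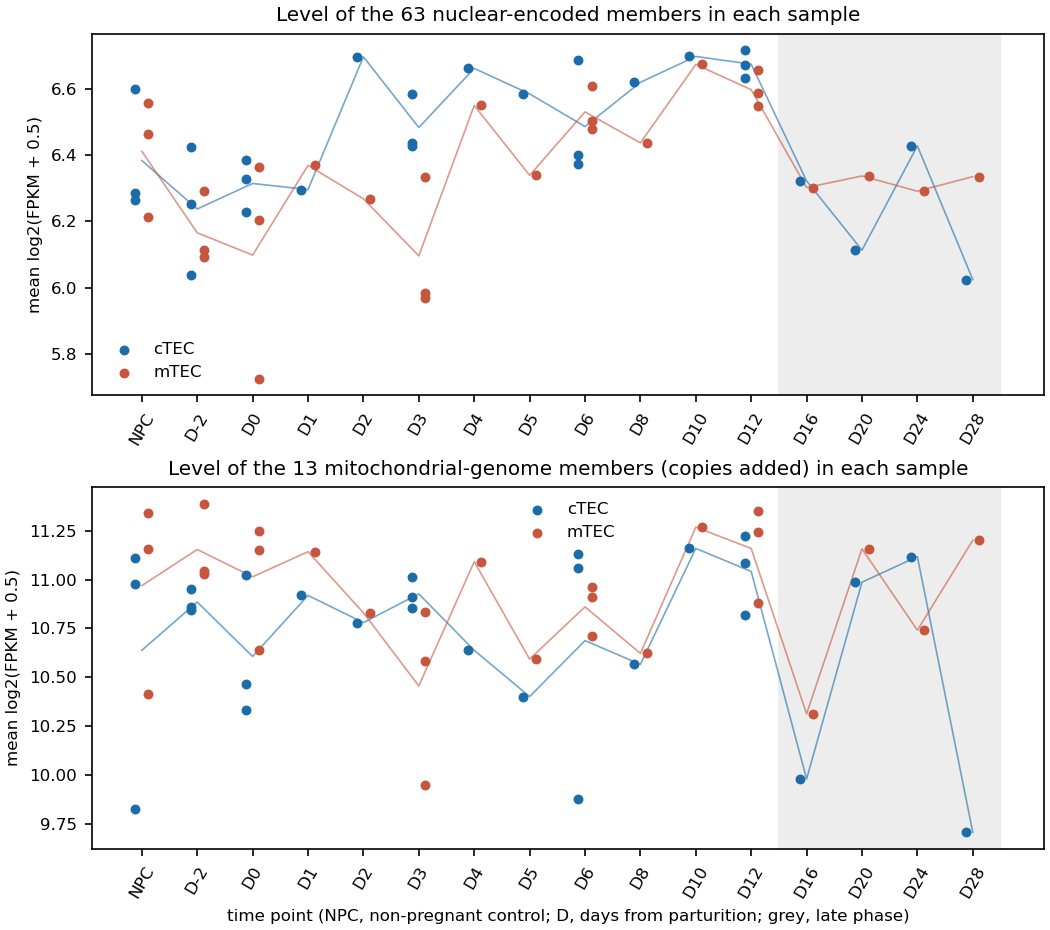
Mean log2(FPKM + 0.5) of the 63 nuclear members (one panel) and the 13 mitochondrial members with copies added (other panel) in each library, by time point (categories, not to scale), with cTECs in blue, mTECs in red, lines joining time-point means and the late phase shaded grey. The nuclear average is higher at D12 than at D-2 in both cell types, and single libraries such as cTEC D6 replicate 3 (9.88) and cTEC D28 (9.71) lie low for the mitochondrial average.

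The first comparison asked which members differed in cTECs between D6, in the middle of early regeneration, and D-2, when the thymus is involuted. Of 63 nuclear members tested, 4 were higher at D6 and none lower, 1 from each complex: Ndufa11, Sdhb, Uqcr10 and Cox5a. With limma-voom and Benjamini-Hochberg adjustment over 15845 genes, 5.60% of all genes passed an adjusted p of 0.05 in either direction and 2.71% were higher, so that the 6.35% among nuclear members was near the background. At an unadjusted p under 0.05 there were 14 of 63, beside 3017 of all 15845 genes. The direction was more general than the calls. Of 63 nuclear members, 47 had a positive log2 fold change and the median was 0.23, against 48.4% of all genes and a median of -0.02. By complex, 26 of 36 members of complex I were positive (median 0.20), 4 of 4 of complex II (0.19), 7 of 8 of complex III (0.43) and 10 of 15 of complex IV (0.12).

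Ndufa11, an accessory subunit of the membrane arm of complex I (ENSMUSG00000002379.6, chr17:56717767-56722141, plus strand), was 98.9, 114 and 84.3 FPKM at D6 and 69.0, 47.5 and 45.8 at D-2. Every D6 library was above every D-2 library, and the log2 fold change was 0.88 ± 0.23 (SE, n = 3 per time point, a fold of 1.84, 95% interval of the log2 value 0.40 to 1.36, limma-voom adjusted p = 0.0308). At D0 the level was 66.1, 58.2 and 57.8 FPKM, at D12 it was 141, 128 and 122, and in NPC it was 77.6, 121 and 65.9. Ndufa11 was thus low at D-2 and D0, and all 3 D12 libraries were above all D6 libraries. It was the only member that passed a joint test over the 6 replicated time points in cTECs (limma-voom F test, adjusted p = 0.0181), where 2.25% of all genes passed. An unadjusted p under 0.05 was found for 13 of 63 nuclear members and for 2557 of all genes. That single call was lost without D0 replicate 3, D12 replicate 1, D-2 replicate 2 or D-2 replicate 3 (0 members each), and 2 members were called without D12 replicate 2, D3 replicate 2, D3 replicate 3, D6 replicate 3 or NPC replicate 1.

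Uqcr10, a small subunit of complex III (ENSMUSG00000059534.8, chr11:4701973-4704342, minus strand), was 160, 185 and 203 FPKM at D6 and 97.2, 88.1 and 110 at D-2, giving a log2 fold change of 0.86 ± 0.24 (SE, n = 3, limma-voom adjusted p = 0.0424). Its 3 NPC libraries, at 144, 200 and 166 FPKM, all lay above the D-2 libraries. Cox5a, a matrix-side subunit of complex IV (ENSMUSG00000000088.7, chr9:57521274-57532426, plus strand), was 127, 122 and 136 FPKM at D6 and 90.3, 75.4 and 66.5 at D-2, with a log2 fold change of 0.71 ± 0.20 (SE, n = 3, limma-voom adjusted p = 0.0495). Its NPC libraries, at 110, 79.2 and 108 FPKM, lay below all D6 libraries, 1 of them within the range of D-2. Sdhb (ENSMUSG00000009863.14, chr4:140961203-140979193, plus strand) was 123, 104 and 81.1 FPKM at D6 and 55.5, 70.1 and 64.5 at D-2, with a log2 fold change of 0.68 ± 0.18 (SE, n = 3, limma-voom adjusted p = 0.0362). For these 3 genes, too, the D6 and D-2 libraries did not overlap.

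Each of the 4 calls lay near the threshold, and none held in every fit without 1 library. The number of members called was 0 without D6 replicate 2, D-2 replicate 2 or D-2 replicate 3, 1 without D6 replicate 1 or D-2 replicate 1, and 2 without D6 replicate 3. The median of nuclear members was 0.06 without D6 replicate 2, 0.15 without D-2 replicate 3 and up to 0.28 in the other fits. Markers moved in the same comparison: the cTEC list summed to 11000 to 12100 FPKM at D6 and 1530 to 2610 at D-2 (7 of 8 markers rose), the thymocyte list to 168 to 208 and 48.0 to 57.3 (3 of 20 rose), and the fibroblast list to 109 to 167 and 296 to 397 (2 of 6 tested fell). The mTEC list summed to 3660 to 4280 FPKM at D6 and 5780 to 8100 at D-2 (2 of 8 tested fell, Ivl at 0 in all 3 D6 libraries), and immediate-early and stress genes to 3990 to 14900 and 10100 to 10900 (2 of 12 fell). Their part in the members' values was not tested.

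**Figure D3:**
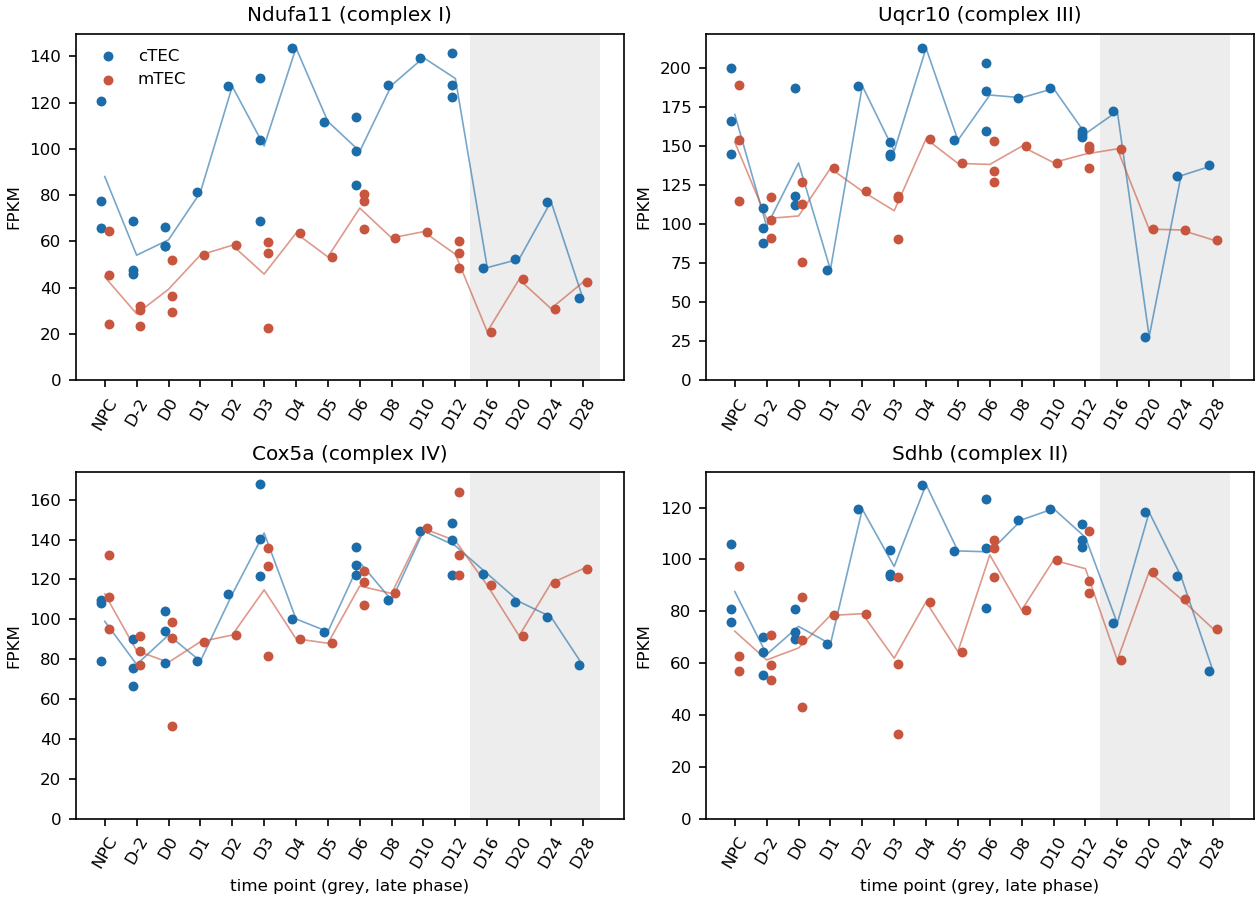
FPKM of Ndufa11, Uqcr10, Cox5a and Sdhb in each library by time point (categories, not to scale), cTECs in blue and mTECs in red, lines joining time-point means and the late phase shaded grey. In cTECs the D6 points lie above the D-2 points for all 4 genes, for example 84.3 to 114 against 45.8 to 69.0 for Ndufa11.

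Separation of the groups also occurred without a call. All 3 D6 libraries lay above all 3 D-2 libraries for 12 of 63 nuclear members, the 4 called ones included, against 12.6% of all genes tested. They lay below for 1 member, Cox7a2l, against 12.3%. The 12 were Ndufa11, Ndufb2, Ndufs4, Ndufa4, Ndufb6, Sdhb, Uqcrb, Uqcrfs1, Uqcrq, Uqcr10, Cox5a and Cox7b. Ndufa4, which carries a complex I name but is now counted as a complex IV subunit, had the highest estimate, 0.96 ± 0.38 (SE, n = 3, limma-voom adjusted p = 0.17), with 108, 166 and 182 FPKM at D6 and 85.7, 86.5 and 69.2 at D-2. The low isoforms Cox8b (0.90), Cox7a1 (-0.53) and Cox6b2 (-2.18 ± 1.98, SE) had log2 fold changes resting on few reads and did not pass.

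No mitochondrial member was called in cTECs at D6 against D-2 (limma-voom, lowest adjusted p = 0.541, 0 of 13 at an unadjusted p under 0.05, and 0 called by edgeR). With copies added, log2 fold changes ran from -0.43 to 0.18 with a median of -0.26, and 10 of 13 were negative. mt-Cytb, which has no copy, was 3270, 3647 and 2074 FPKM at D6 and 2855, 2885 and 2469 at D-2. mt-Nd1 was 3210, 3562 and 1108 FPKM at D6 and 2206, 2528 and 2202 at D-2. In both genes, D6 replicates 1 and 2 lay above and D6 replicate 3 below all D-2 libraries. The sign of the median of the deposited mitochondrial values depended on single libraries. It was -0.25 with all libraries, 0.15 without D6 replicate 3 and 0.05 without D-2 replicate 2. The median with copies added is not given without single libraries. As deposited, mt-Co2 had a log2 fold change of 2.24 and mt-Atp6 of 1.92, where the sums with copies gave -0.32 and -0.12, and mt-Nd3 had -1.90 where the sum gave -0.15.

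In mTECs the same contrast, D6 against D-2, called no member (limma-voom, lowest adjusted p = 0.135, 0 called by edgeR), against 0.490% of all genes. At an unadjusted p under 0.05 there were 10 nuclear and 2 mitochondrial members, beside 1339 of all 17743 genes. DESeq2 called 1 member, beside 285 of all genes. The values leaned to one side nevertheless. Of 64 nuclear members tested, 57 were positive with a median log2 fold change of 0.32, against 48.1% and -0.03 for all genes, including 32 of 36 in complex I (0.36), 4 of 4 in complex II (0.33), 8 of 8 in complex III (0.25) and 13 of 16 in complex IV (0.25). Every D6 library lay above every D-2 library for 35 of the 64, against 10.9% of all genes, and below for none, against 12.9%. Of the 35, 24 were complex I subunits. Leaving out single libraries kept the nuclear median between 0.28 and 0.44.

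Ndufa11 had the largest estimate among nuclear members in mTECs. It was 65.3, 77.5 and 80.5 FPKM at D6 and 30.5, 23.4 and 32.3 at D-2 in mTECs, giving a log2 fold change of 1.26 ± 0.34 (SE, n = 3, limma-voom adjusted p = 0.135). Ndufc1, another accessory complex I subunit, was 123, 97.2 and 86.3 FPKM at D6 and 52.9, 61.1 and 38.7 at D-2 (1.19 ± 0.38, SE, n = 3, limma-voom adjusted p = 0.260). Sdhb was 105, 93.2 and 108 FPKM at D6 and 71.0, 53.5 and 59.3 at D-2 (0.70 ± 0.28, SE, n = 3, limma-voom adjusted p = 0.482). For all 3 genes the groups did not overlap, although none passed the test. Uqcr10 and Cox5a had log2 fold changes of 0.30 and 0.47 in mTECs (limma-voom adjusted p = 0.966 and 0.754).

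The mitochondrial members leaned the other way in mTECs. With copies added, 13 of 13 log2 fold changes at D6 against D-2 were negative, from -0.72 to -0.08 with a median of -0.31. mt-Co1 with its copy was 4942, 4391 and 5204 FPKM at D6 and 6570, 7774 and 6649 at D-2 (-0.57 ± 0.19, SE, n = 3, limma-voom adjusted p = 0.319). mt-Cytb was 2857, 2491 and 2803 FPKM at D6 and 3108, 3739 and 3169 at D-2 (-0.33 ± 0.22, SE, n = 3, limma-voom adjusted p = 0.865). The groups did not overlap for either gene. When the mean log2 level of nuclear members was subtracted from that of mitochondrial members, the difference was 4.23 to 4.46 at D6 and 4.74 to 5.30 at D-2 in mTECs, with no overlap, and 3.50 to 4.66 and 4.42 to 4.82 in cTECs, with overlap. The cTEC list moved in mTECs too (4 of 8 rose), and the macrophage and dendritic cell list summed to 21 to 66.0 FPKM at D6 and 67.6 to 110 at D-2. Immediate-early and stress genes were negative in 12 of 12 (0 called, summed 2230 to 9500 FPKM at D6 and 6600 to 9460 at D-2), and proliferation genes positive in 10 of 10 (0 called, 54.1 to 159 and 30.8 to 85.1). Their part in the members' values was not tested. As deposited, mt-Co2 had a log2 fold change of 8.78 ± 10.60 (SE) in mTECs, against -0.30 with its copy added.

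Whether the contrast differed between the cell types was tested directly as mTEC minus cTEC. None of 77 members passed (limma-voom, lowest adjusted p = 0.915), against 0.0326% of all genes. At an unadjusted p under 0.05 there were 2 members, beside 904 of all 18394 genes. edgeR called 0 members, beside 11 of all genes. The 95% interval of the difference was -0.50 to 1.24 on the log2 scale for Ndufa11, -1.31 to 0.25 for Uqcr10, -0.91 to 0.49 for Cox5a and -0.69 to 0.74 for Sdhb. These intervals leave room for differences as large as the changes themselves.

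**Figure D4:**
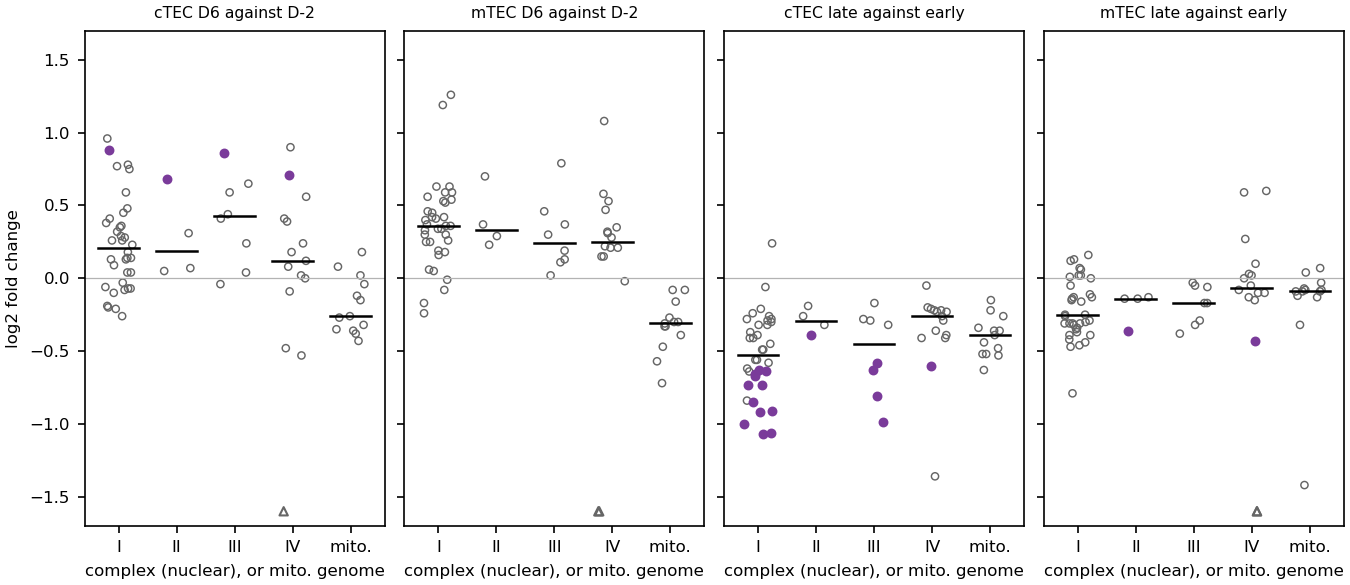
Log2 fold changes of the members, 1 point per gene, by complex (nuclear genes) or for the mitochondrial genome (copies added), in 4 comparisons, D6 with D-2 and the late with the early phase, each in cTECs and in mTECs. Filled purple points passed an adjusted p of 0.05, black lines are medians and triangles mark 5 points beyond the axis; in mTECs the 13 mitochondrial genes lie below 0 at D6, while the nuclear median is 0.32.

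The D-2 libraries also enter the comparison with NPC, so that the 2 contrasts share samples and their values are only set side by side. It asked which members differed at the end of gestation. In cTECs no member was called (limma-voom, lowest adjusted p = 0.331), against 0.353% of all genes. At an unadjusted p under 0.05 there were 6 nuclear and 0 mitochondrial members, beside 1324 of all 15845 genes. By edgeR 0 members were called (84 of all genes), and by DESeq2 2 members (298 of all genes). The lowest p-values belonged to 2 genes that were higher at D6: Uqcr10 (log2 fold change -0.79 ± 0.26, SE) and Ndufa11 (-0.68 ± 0.24, SE). The Uqcr10 libraries, 97.2, 88.1 and 110 FPKM at D-2 and 144, 200 and 166 in NPC, did not overlap. Of 63 nuclear members 27 were positive (median -0.08, against 53.7% and 0.03 for all genes). With copies added, 13 of 13 mitochondrial members were positive with a median of 0.27. The median of the deposited mitochondrial values was 0.21, and it was -0.17 without NPC replicate 3, the control library with a low mitochondrial average, 0.12 without D-2 replicate 2, and 0.40 and 0.44 without NPC replicates 2 and 1. The nuclear median ran from -0.16 (without NPC replicate 3) to 0.07 (without NPC replicate 2). In the same contrast 7 of 8 cTEC markers fell (summed 1530 to 2610 FPKM at D-2 and 5680 to 7870 in NPC), and thymocyte genes were negative in 20 of 20 (0 called, 48.0 to 57.3 and 69.5 to 365). What these lists contribute to the members' values was not tested. As deposited, mt-Co2 had a log2 fold change of 3.50, mt-Nd4l of 1.46, mt-Atp6 of -4.42, mt-Co3 of -2.94 and mt-Nd3 of -2.51, none of which passed.

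In mTECs at D-2 against NPC, again no member was called (limma-voom, lowest adjusted p = 0.068, 0 by edgeR), against 2.33% of all genes. At an unadjusted p under 0.05 there were 11 nuclear and 3 mitochondrial members, beside 2981 of all 17743 genes, and without mTEC NPC replicate 3 there were 4 calls. Nuclear members leaned downward: 13 of 64 were positive and the median log2 fold change was -0.31, against 57.4% and 0.12 for all genes. Uqcr11, the smallest complex III subunit, came closest among those without a copy. It was 103, 92.5 and 101 FPKM at D-2 and 227, 241 and 108 in NPC (-0.98 ± 0.28, SE, n = 3, limma-voom adjusted p = 0.0745), every D-2 library below every NPC library. The low isoforms Cox8b (4.37 ± 1.92, SE), Cox4i2 (-2.58) and Cox6b2 (-1.39) had large log2 estimates from low levels and did not pass. The lowest adjusted p was that of mt-Atp6, with a deposited log2 fold change of 8.32 and of -0.05 with its copy added. mt-Nd4l (6.68), mt-Co3 (6.21) and mt-Co2 (-3.44) also had large deposited values in this contrast, whereas the median of the 13 members with copies added was 0.11. The median of the deposited mitochondrial values was 0.16, or -0.01 without NPC replicate 3. Proliferation genes were negative in 10 of 10 (1 fell, summed 30.8 to 85.1 FPKM at D-2 and 121 to 193 in NPC), immediate-early and stress genes positive in 12 of 12 (0 called), and cytosolic ribosomal proteins negative in 77 of 80 (0 called, median -0.32). The part of these lists in the members' values was not tested.

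The joint test over the 6 replicated time points in mTECs called 1 member, Ndufa9 of complex I, at the threshold (limma-voom F test, adjusted p = 0.0481), against 5.44% of all genes, with 21 nuclear members and 4060 of all genes at an unadjusted p under 0.05. Ndufa9 was 94.8, 96.9 and 47.5 FPKM in NPC, 63.9, 45.6 and 55.0 at D-2, 53.1, 38.3 and 48.9 at D0 and 51.7, 49.3 and 43.0 at D3. It was then 73.6, 71.6 and 84.4 FPKM at D6 and 88.2, 86.9 and 91.0 at D12. All 6 libraries of D6 and D12 were above the 9 of D-2, D0 and D3, and NPC replicate 3 was apart from the other NPC libraries. Without that library 9 members were called. There were 0 calls without any one of the 3 D12 or 3 D6 libraries, D3 replicate 1 or 2, D-2 replicate 3, or NPC replicate 1 or 2, and 2 calls without any one of the 3 D0 libraries, D3 replicate 3, or D-2 replicate 1 or 2.

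The clearest pattern was in cTECs in late against early regeneration, a contrast of 4 single libraries with 18. Of 63 nuclear members, 18 were lower in the late phase and none higher (28.6%), against 4.74% of all genes lower and 10.7% in either direction. By complex, 12 of 36 members of complex I fell, 1 of 4 of complex II, 4 of 8 of complex III and 1 of 15 of complex IV. The estimates were negative for 62 of 63 members, with a median log2 fold change of -0.39, whereas 47.4% of all genes were positive with a median of -0.04. Medians were -0.53 for complex I, -0.29 for complex II, -0.45 for complex III and -0.26 for complex IV. The exception was Ndufs1 (0.24, limma-voom adjusted p = 0.309), the largest iron-sulfur subunit of complex I, with 50.1, 78.6, 28.2 and 41.6 FPKM at D16, D20, D24 and D28.

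Under the stricter rule of at least 2-fold and an adjusted p of at most 0.01, which 1.41% of all genes met, 3 members fell, all accessory subunits of complex I. Ndufb6 was 42.3, 34.5, 37.2 and 22.5 FPKM at D16, D20, D24 and D28, against 31.0 to 67.7 with a median of 53.3 in the early phase (log2 fold change -1.0 ± 0.21, SE, limma-voom adjusted p = 0.00432). Ndufa5 was 141, 62.0, 138 and 97.3 FPKM against 107 to 454 with a median of 170 (-1.06 ± 0.23, SE, limma-voom adjusted p = 0.00622). Ndufa11 was 48.7, 52.4, 77.2 and 35.5 FPKM against 57.8 to 144 with a median of 113 (-1.07 ± 0.25, SE, limma-voom adjusted p = 0.00902). All 4 late libraries lay below the early median for each of these genes, but the ranges overlapped.

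The smallest adjusted p among members was that of Ndufb10, a complex I subunit (ENSMUSG00000040048.14, chr17:24722060-24724478, minus strand), at 158, 86.5, 167 and 134 FPKM against 166 to 357 with a median of 231 (-0.92 ± 0.15, SE, limma-voom adjusted p = 0.000531). Ndufa2 was 79.0, 114, 116 and 62.3 FPKM against 93.7 to 216 (-0.91, limma-voom adjusted p = 0.00368). Ndufb2 was 46.8, 40.3, 54.7 and 44.4 FPKM against 57.6 to 203 (-0.85, limma-voom adjusted p = 0.00458). Of these, only Ndufb2 had no overlap with the early libraries. The other complex I members that fell were Ndufa7, Ndufs4, Ndufs7, Ndufb5, Ndufb7 and Ndufa10, with log2 fold changes from -0.73 to -0.63.

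In complex III, Uqcrq (-0.81, limma-voom adjusted p = 0.00987), Uqcrfs1, the Rieske iron-sulfur protein (-0.63, 0.0271), Uqcr11 (-0.58, 0.0203) and Uqcr10 (-0.99 ± 0.32, SE, 0.0457) fell. Uqcr11 was 124, 144, 148 and 106 FPKM at D16, D20, D24 and D28 against 150 to 318 in the early phase, with no overlap. Uqcr10 was 172, 28, 131 and 138 FPKM against 70.8 to 212, so that D20 alone lay outside the early range. In complex II, Sdha was 97.3, 86.6, 96.6 and 97.7 FPKM against 82.3 to 149 with a median of 101 (-0.39, limma-voom adjusted p = 0.0286). In complex IV, Cox8a was 258, 306, 336 and 219 FPKM against 307 to 488 with a median of 403 (-0.60 ± 0.13, SE, limma-voom adjusted p = 0.00489).

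The number of members called in this contrast depended on single libraries and on the phase border. It was 10 without D28, 13 without D20, 16 without D16 and 25 without D24, and 5 of the 18 (Cox8a, Ndufa2, Ndufb10, Ndufb2 and Ndufb6) were called in every one of these fits. It was 0 when D12 was counted as late, and 6 with edgeR. Calls over all 15845 genes fell as well, from 1702 to 13 with D12 as late and to 387 with edgeR. Fibroblast and mesenchyme markers summed to 304 to 699 FPKM in the late libraries and 85.6 to 368 in the early ones (5 of 6 tested rose), 4 of 6 general TEC markers fell, 2 of 8 cTEC markers fell and 4 of 8 mTEC markers rose. Their part in the members' values was not tested. No mitochondrial member was called (limma-voom, lowest adjusted p = 0.0818, 0 by edgeR), although 13 of 13 were negative with copies added (median -0.39). At an unadjusted p under 0.05 there was 1 of 13, beside 4310 of all 15845 genes. The median of the deposited mitochondrial values was -0.36, and it was -0.20 without D16 and -0.14 without D28, the 2 late libraries with low mitochondrial averages, and -0.70 without D24.

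In mTECs, late against early regeneration called 2 of 64 nuclear members, both lower (1.96% of all genes in either direction, 0.558% lower). Sdha was 75.9, 74.5, 78.9 and 68.6 FPKM at D16, D20, D24 and D28, against 73.3 to 193 with a median of 95.4 (log2 fold change -0.36 ± 0.09, SE, limma-voom adjusted p = 0.0381). Cox7a2l, counted with complex IV by its symbol, was 166, 209, 192 and 227 FPKM against 207 to 295 with a median of 255 (-0.43 ± 0.11, SE, limma-voom adjusted p = 0.0405). Sdha was thus called lower in the late phase of both cell types, but neither call held in every fit without 1 library. In cTECs all its late libraries lay within the early range. For mTECs there were 0 calls without D16 or without D24, and 0 with edgeR. Of the 64 nuclear members 50 were negative with a median of -0.15. For the complex I subunits called in cTECs the mTEC log2 fold changes were -0.79 ± 0.24 (SE) for Ndufa11 (limma-voom adjusted p = 0.0707), -0.42 for Ndufa5, -0.39 for Ndufb6 and -0.13 for Ndufb10. The difference between the cell types in this contrast was not tested. The nuclear median was -0.24 without D20. With copies added 11 of 13 mitochondrial members were negative (median -0.09), and the median of the deposited values was -0.03, or 0.21 without D16. In this contrast 3 of 8 cTEC markers and 2 of 6 general TEC markers fell, immediate-early and stress genes were negative in 12 of 12 (0 called, summed 2920 to 7930 FPKM in the late and 2230 to 15800 in the early libraries), and proliferation genes positive in 10 of 10 (0 called, 127 to 215 and 22.8 to 245). Their part in the members' values was not tested.

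Between the cell types, 22 of 77 members differed over all 56 libraries (28.6%), against 51.7% of all genes, a lower share than in all genes. With mTECs as the numerator and deposited values, 9 were higher (31.4% of all genes were) and 13 lower (20.3%). All 13 lower members were nuclear, 10 of complex I and 3 of complex II. The 9 higher members were 4 mitochondrial genes, 4 of complex IV and 1 of complex I, and 0 of 8 in complex III differed. By the 2-fold rule, met by 23.3% of all genes, only Cox4i2 differed (2.91 ± 0.59 on the log2 scale, SE, limma-voom adjusted p = 0.00011). Its levels were very low, with a median of 1.87 FPKM in mTECs (0 to 8.52, 6 libraries at 0) and 0.21 in cTECs (0 to 5.27, 13 libraries at 0), and edgeR did not call it.

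Ndufa11 had the largest difference among abundant members, with a median of 52.7 FPKM in mTECs (21 to 80.5) and 82.8 in cTECs (35.5 to 144), a log2 fold change of -0.88 ± 0.09 (SE, n = 28 per cell type, limma-voom adjusted p = 3.47e-09). Ndufc2, its opposite within complex I, had a median of 133 FPKM in mTECs (53.4 to 210) and 92.9 in cTECs (53.1 to 138), or 0.53 ± 0.08 (SE, limma-voom adjusted p = 1.18e-06). The other 9 complex I members called were lower in mTECs by small amounts, from -0.39 for Ndufs7 and -0.37 for Ndufs1 to -0.20 for Ndufs3 and -0.19 for Ndufv3. Complex II was lower in mTECs in 3 of 4 subunits, Sdhc (-0.32), Sdhb (-0.26) and Sdha (-0.25), with -0.07 for Sdhd, which did not pass. In complex IV, Cox4i1 (0.23), Cox7a2l (0.22) and Cox6b1 (0.16) were higher in mTECs. Ranges overlapped for every one of these genes.

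Of the mitochondrial members, 6 were higher in mTECs in the fit with copies added: mt-Atp8 (0.56 ± 0.13, SE, limma-voom adjusted p = 0.000415, and 0.53 as deposited), mt-Nd3 (0.41, and 1.57 as deposited), mt-Atp6 (0.40, and -1.74 as deposited), mt-Cytb (0.29, and 0.26 as deposited), mt-Co1 (0.27, and 0.24 as deposited) and mt-Co2 (0.23, and 2.28 as deposited). Of these, mt-Atp6 and mt-Co2 were not called as deposited. In that fit 12 of 13 mitochondrial members were positive with a median of 0.27, and 41 of 64 nuclear members were negative with a median of -0.04 (42 and -0.07 with deposited values). Nuclear calls were 15 in it, of which 7 were in complex I and 1 in complex III, where Ndufs3, Ndufv1, Ndufv3 and Ndufa7 no longer passed and Uqcrfs1 did (0.15, limma-voom adjusted p = 0.0425). The macrophage and dendritic cell list summed to 21 to 228 FPKM in mTECs and 4.48 to 46.5 in cTECs, and the erythroid list to 0 to 79.1 and 0 to 9.57. Of 10 proliferation genes 9 were higher in mTECs (summed 22.8 to 245 FPKM, against 8.6 to 86.3), 15 of 20 thymocyte genes were lower, and 3 of 12 immediate-early and stress genes were lower. Their part in the members' values was not tested.

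**Figure D5:**
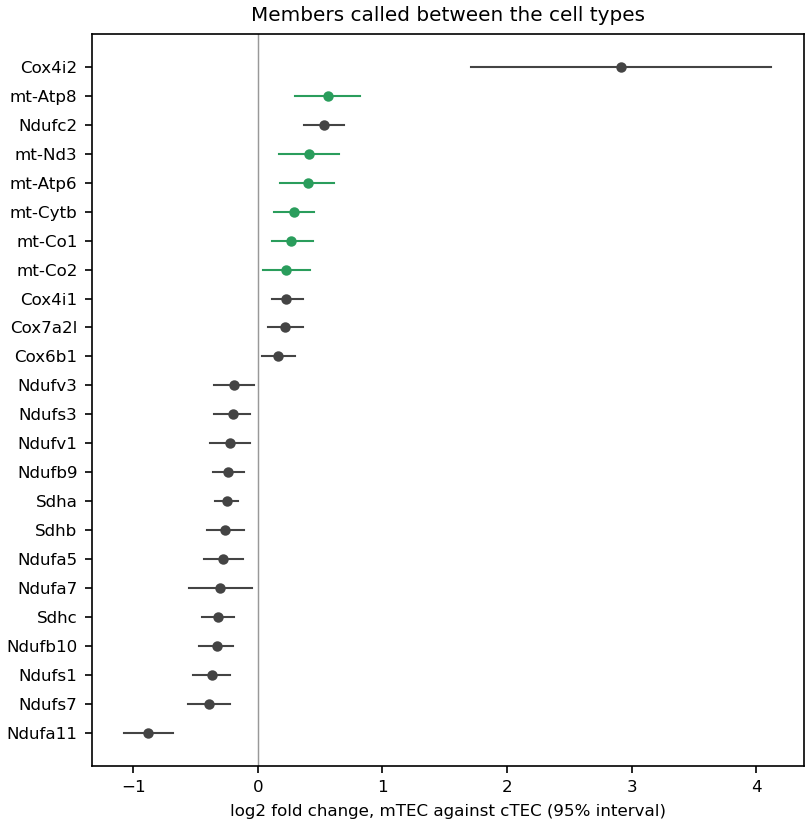
Log2 fold change of mTECs against cTECs, with the 95% interval, for the 18 nuclear members called with deposited values (grey) and the 6 mitochondrial members called with copies added (green). Complex I and II subunits lie mostly left of 0, with Ndufa11 at -0.88, and mitochondrial genes right of 0, with mt-Atp8 at 0.56.

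Nuclear and mitochondrial averages were only loosely related across libraries. Over 28 cTEC libraries Pearson's r was 0.40 and Spearman's rho 0.43, and r was 0.32 without the 2 libraries farthest from the median nuclear average. In mTECs the values were 0.29, 0.31 and 0.44. These are descriptions only, since the averages share the library, its depth and the FPKM denominator. Reads of mitochondrial members were 1.11 to 2.78% of estimated counts as deposited, and those of nuclear members 0.367 to 0.655%.

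Genes of related pathways were counted in the same way from lists fixed beside the members, first at cTEC D6 against D-2. Of nuclear ATP synthase subunits, 15 of 16 had a positive log2 fold change (median 0.42), with 1 higher. Of mitochondrial ribosomal proteins, 62 of 78 were positive (median 0.26), with 1 higher, Mrpl3, which went from 44.8 ± 1.59 FPKM to 108 ± 8.75 (SD, n = 3, log2 fold change 1.10 ± 0.21, SE, limma-voom adjusted p = 0.00405). Cytosolic ribosomal proteins leaned the other way, with 14 of 80 positive (median -0.21). Citric acid cycle enzymes had 10 of 13 positive (0.17, 0 called) and glycolytic enzymes 7 of 15 (-0.02, 1 higher). Complex I assembly factors had 11 of 14 positive (0.23, 0 called) and assembly factors of complexes II to IV 13 of 27 (-0.02, 0 called). Regulators of mitochondrial biogenesis had 14 of 20 positive (0.28, 0 called), with Ppargc1a at -0.74 (limma-voom adjusted p = 0.749) and Esrra, a nuclear receptor partner of it, at 0.62. Subunits and carriers left out by the symbol rule included Cyc1, cytochrome c1 of complex III (0.50), Ndufab1 (0.35) and Cycs, cytochrome c (0.76), none of which passed.

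In mTECs at D6 against D-2, every one of these lists was without a call, and cytosolic ribosomal proteins were positive in 79 of 80 (median 0.30), mitochondrial ribosomal proteins in 68 of 78 (0.28), ATP synthase subunits in 15 of 16 (0.44) and citric acid cycle enzymes in 12 of 13 (0.27). Cytosolic ribosomal proteins thus had the sign of the nuclear members in mTECs and the opposite sign in cTECs. In late cTECs, 34 of 80 cytosolic ribosomal proteins fell (76 negative, median -0.36), as did 10 of 78 mitochondrial ribosomal proteins (median -0.30), 6 of 16 ATP synthase subunits (-0.36) and 2 of 13 citric acid cycle enzymes. The median of the cytosolic ribosomal proteins was close to the -0.39 of the nuclear members.

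The promoters of the 4 members called at cTEC D6 are shown because all 4 passed the test there and because nuclear respiratory factors are known regulators of the family. The windows are the 120 bases before the RefSeq start (GRCm38.p6), with motif matches in capitals, at chr17:56717642-56717761 (plus strand, Ndufa11), chr9:57521112-57521231 (plus strand, Cox5a), chr4:140961151-140961270 (plus strand, Sdhb) and chr11:4704345-4704464 (minus strand, Uqcr10).
Ndufa11: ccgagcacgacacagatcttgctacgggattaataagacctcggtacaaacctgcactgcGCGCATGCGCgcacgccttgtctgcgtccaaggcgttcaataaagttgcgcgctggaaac
Cox5a: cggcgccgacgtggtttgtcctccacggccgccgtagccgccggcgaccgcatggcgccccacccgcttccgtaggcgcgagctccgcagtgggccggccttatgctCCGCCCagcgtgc
Sdhb: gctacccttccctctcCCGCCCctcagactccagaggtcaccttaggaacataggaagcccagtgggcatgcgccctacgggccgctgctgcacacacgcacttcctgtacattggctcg
Uqcr10: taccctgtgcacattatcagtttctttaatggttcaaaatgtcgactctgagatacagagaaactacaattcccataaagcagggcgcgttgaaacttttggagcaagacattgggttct
Ndufa11 held an NRF1 match (GCGCA, any base, then GCGC), Cox5a and Sdhb each held a match to the SP1 motif GGGCGG on the reverse strand, and the window of Uqcr10 held none of the 4 motifs searched. Over windows from 250 bases before to 50 after the start, searched on both strands, the NRF1 motif was in 11 of 53 nuclear members with a promoter sequence (20.8%, against 5.19% of 27025 genes), the GABPA motif CCGGAAG in 11 (20.8% against 9.93%), the YY1 motif AAGATGG in 8 (15.1% against 7.28%) and the SP1 motif in 22 (41.5% against 38.2%). The other 13 nuclear members are not analysed here for motifs. The 27025 genes were not limited to those expressed in TECs, and the share among expressed genes was not computed. A match describes letters in a window and not binding.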

How the data were processed

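RNA from sorted cTECs and mTECs of 56 libraries was measured by stranded poly(A) RNA-sequencing. Per the labels and the study's methods, the authors used bcl2fastq 2.20, Trimmomatic 0.35, STAR 2.5.1b and RSEM 1.2.28 on GRCm38 and deposited, for each library and gene, an expected count, a TPM and an FPKM value; whether counting used the strand is not given in the sources used here. Expected counts split ambiguous reads by estimation and were rounded. Over all genes, 91.44 to 97.96% of the values of a library were whole, with genes at 0 counted as whole. FPKM gave levels, and TPM only the mitochondrial share (median 6.25% with copies).

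Genes with a mean of at least 0.5 FPKM in the cell type (in either for tests over both) were fitted by limma-voom with TMM factors (R 4.3.3, limma 3.58.1, edgeR 4.0.16), with 1 mean per time point over the 28 libraries of a cell type, 1 per phase for late against early, or 1 per cell type and time point over all 56. Benjamini-Hochberg adjustment was over all genes tested. A call was an adjusted p of at most 0.05 with no fold minimum, and the study's rule was 2-fold and 0.01. In all, 10 comparisons were made. By the study's methods, each library came from 1 mouse. Copies were unprocessed pseudogenes on chromosomes 1 and 2 that shared over 10% of the 75-base windows of a mitochondrial member, and their counts were added before the fit; this alternative was chosen after seeing the data. Scripts ran in Python 3.11.15 (numpy 2.4.6, pandas 2.3.3, matplotlib 3.10.9). The fit was tested on simulated data with changes put into genes drawn at random from all those tested. For cTEC D6 against D-2 (15845 genes) it recovered 13% of 2-fold and 36% of 4-fold changes. For mTEC D6 against D-2 (17743 genes) it recovered 3% and 29%. Recovery among the members themselves was not measured, and a missed call at 3 libraries per group is not read as no change.

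The members and lists were chosen with earlier results of these data known. Named members were the mitochondrial ones, Sdha to Sdhd, the tissue isoforms, the 3 highest and lowest by level, per comparison the 3 largest changes each way and those past the study's rule, and up to 3 genes per pathway list; other members are named because they passed a test or came near it, and were thus chosen after their values were seen. Alternatives were edgeR's quasi-likelihood test, DESeq2 1.42.0, limma-trend on log2 FPKM, quality weights, no filter, no TMM, TMM without mitochondrial genes, blocks, D12 as late and leaving out each library. The deposited files held no columns of other comparisons. The result of 1 further gene of a pathway list is not reported here.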

Additional observations from a re-analysis of the deposited data

Results flagged for a closer look

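Among the 4 late libraries of a cell type, 1 library stood apart from the other 3 by Dixon's criterion in 5 of 32 members tested. Chance gives this in about 1 in 20 groups, and the 4 libraries come from 4 different days. In cTECs at D20, Ndufb5 was 30.5 FPKM against a median of 79.5 over the late libraries, and Sdha was 86.6 FPKM against 97.0. As deposited, mt-Co2 was listed in that library at 0.0 FPKM against 1330. In cTECs at D24, mt-Co3 as deposited was 584 FPKM against 0.155. The deposited values of these mitochondrial genes carry the changing division of reads with Gm28661 and Gm28437. With copies added, mt-Co2 was never below 2650 FPKM and mt-Co3 never below 2010 in the 56 libraries. In mTECs at D16, Cox6a2 was 1.09 FPKM with a median of 0.0. Leaving out D20 lowered the number of members called in cTECs late against early to 13.

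A signal outside the members lay in the chromosome 1 copies. Their median FPKM over 56 libraries was 5270 for Gm28437 (copy of mt-Co3), 4950 for Gm28661 (mt-Co2), 4370 for Gm10925 (mt-Atp6), 1710 for Gm29216 (mt-Co1), 554 for Gm10222 (mt-Nd4l) and 422 for Gm28438 (mt-Nd3). For the first 3 this exceeded the member itself (0.16, 312 and 431 FPKM). How many of these reads came from nuclear DNA transcripts was not tested, and identical stretches of a pair cannot be told apart.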

How the results depend on the processing

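Across the alternatives that left out no library, 852 values apart from the counts of calls were unchanged. These were single genes that kept direction and side of the threshold, and medians or shares that moved by less than a typical SD. Of such medians or shares, 6 moved by more. Of the values of single genes, 117 lost the call, 13 gained it and 32 reversed. With all libraries, counts of members called are given with the counts over all genes tested in parentheses. cTEC D6 against D-2 gave 0 with no filter (436 of 29167) and 10 with quality weights (1509 of 15845). cTEC D-2 against NPC gave 2 with DESeq2 (298 of 15845). The joint cTEC test gave 3 with edgeR (327 of 15845), 5 with DESeq2 (1123) and 10 with quality weights (1055). cTEC late against early gave 6 with edgeR (387 of 15845) and 4 with limma-trend (254). It gave 51 with quality weights (5267) and 0 with D12 as late (13). mTEC D6 against D-2 gave 1 with no filter (126 of 32457) and 1 with DESeq2 (285 of 17743). It gave 12 with quality weights (2494 of 17743) and 4 from the 6 libraries alone (402 of 17743). mTEC D-2 against NPC gave 4 with no filter (919 of 32457). The joint mTEC test gave 0 with edgeR (183 of 17743), limma-trend (49) or TMM without mitochondrial genes (873). It gave 12 with no filter (1867 of 32457) and 17 with quality weights (2954 of 17743). mTEC late against early gave 0 with edgeR (14 of 17743), limma-trend (10), quality weights (277) or D12 as late (1486). It gave 1 without TMM (572 of 17743) or with DESeq2 (125), and 13 with no filter (1886 of 31371). mTEC against cTEC gave 14 with edgeR (6176 of 18394), and the difference of contrasts 1 with quality weights (332 of 18394). The causes were not tested. Leaving out each library gave 0 to 2 calls at cTEC D6 against D-2, 0 to 2 in the joint cTEC test, 10 to 25 in cTEC late against early, 0 to 4 in mTEC D-2 against NPC, 0 to 9 in the joint mTEC test and 0 to 2 in mTEC late against early.

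Replicate numbers did not pair most libraries. Deviations of same-numbered libraries had correlations of -0.093 to 0.381 in cTECs (median 0.013) and -0.085 to 0.284 in mTECs (median 0.001). In each cell type 2 of 45 pairs exceeded 0.1. The highest were NPC and D6 replicate 3 in cTECs and NPC and D3 replicate 3 in mTECs, libraries described above as low or apart. What they share was not tested. With a replicate block, 3 members were called at cTEC D6 against D-2, beside 881 of all 15845 genes. The joint cTEC test then called 2 (387 of 15845 genes) and the joint mTEC test 0 (283 of 17743). Libraries of both cell types with the same number in their titles at a time point may come from 1 mouse, which the labels do not state. They correlated at -0.129 to 0.108 (median 0.022). With that number as a block (consensus correlation 0.0286), 22 members were called between the cell types, beside 9585 of all 18394 genes.

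Apart from Cox7a1, Cox6a2 and Cox8b, the reversals were of mitochondrial members with a copy. Adding copies turned mt-Co2 to -0.32 and mt-Atp6 to -0.12 at cTEC D6 against D-2. At cTEC D-2 against NPC it turned mt-Nd3 to 0.27, mt-Co3 to 0.32 and mt-Atp6 to 0.15. In cTEC late against early it turned mt-Co2 to -0.39, mt-Nd4l to -0.52 and mt-Co3 to -0.52. It turned mt-Co2 to -0.30 at mTEC D6 against D-2, mt-Atp6 to -0.05 and mt-Co2 to 0.02 at mTEC D-2 against NPC, and mt-Co2 to -0.13, mt-Nd4l to -0.12 and mt-Nd3 to -0.09 in mTEC late against early. It turned mt-Atp6 to 0.40 in mTEC against cTEC and mt-Nd4l to -0.04 in the difference of contrasts. edgeR turned mt-Co2 to -1.11 and mt-Nd3 to 0.01 at cTEC D6 and Cox7a1 to -2.03 in the difference of contrasts, and DESeq2 turned mt-Co2 to -1.17 at cTEC D6. The replicate block turned mt-Nd3 to 0.38 at cTEC D6 and to 0.60 at cTEC D-2 against NPC. Quality weights turned mt-Co2 to -1.33 at cTEC D-2 against NPC, mt-Nd4l to -0.07, mt-Co3 to -2.38 and mt-Atp6 to 0.57 in late cTECs, Cox6a2 to 0.24 and mt-Co3 to 2.37 at mTEC D6, and mt-Co3 to 3.07 in the difference of contrasts. D12 as late turned Cox8b to 0.41 in cTECs and mt-Nd4l to -0.17 and mt-Nd3 to -0.11 in mTECs.

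Leaving out 1 library also turned the sign of some log2 fold changes. At cTEC D6 these ran from -1.65 to 5.08 for mt-Co2, -1.55 to 4.32 for mt-Atp6 and -5.36 to 2.58 for mt-Nd3. At cTEC D-2 against NPC they ran from -1.91 to 7.32 for mt-Co2, -4.81 to 0.90 for mt-Nd3 and -4.93 to 0.05 for mt-Co3. In late cTECs they ran from -0.46 to 7.61 for mt-Co2, -2.04 to 2.48 for mt-Co3, -1.97 to 0.31 for Cox8b, -5.72 to 1.41 for mt-Nd3 and -6.65 to 0.35 for mt-Atp6. In mTECs they ran from -6.80 to 3.25 for mt-Co3 at D6, -0.19 to 8.02 for mt-Nd4l and -11.04 to 0.06 for mt-Co2 at D-2 against NPC, and -6.57 to 0.03 for mt-Atp6 in the late phase. In the difference of contrasts they ran from -6.01 to 3.55 for mt-Co3 and -5.95 to 0.01 for mt-Atp6.

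The late phase had 4 single libraries per cell type, each from 1 day, so day, mouse and library cannot be told apart there. Depth differed between libraries, and levels of the low isoforms rested on few reads.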
